A study of Mus musculus with 37 samples.

Results

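Liver gene expression was compared between 5 sires and 5 dams that received only deionized water by gavage. They were 10 of the 37 mice with deposited counts from a larger reproduction and developmental toxicity study of HFPO-DA, a short-chain perfluoroalkyl ether acid. All mice were wild-type CD1, of the outbred stock Crl:CD1(ICR). The members were taken from the labels as the mice at 0 mg/kg, and the genes compared were the 12508 autosomal genes that passed the filter on low counts, of 20402 autosomal genes with a probe. Sires were 6 weeks old at the first dose, were dosed for 70 days before mating and through a 14-day mating period, and received 84 to 85 doses. Dams were 11 weeks old at the first dose, were dosed for 14 days before mating and then through pregnancy to lactation day 20 or 21, and received 53 to 65 doses. Sex, reproductive state, age and length of dosing therefore cannot be told apart in any difference given here. RNA was read from formalin-fixed, paraffin-embedded sections with TempO-Seq, in which pairs of probes are joined on the transcript and counted by sequencing. In whole liver, fewer cells of a type and less RNA per cell cannot be told apart.

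The liver is among the most sex-dimorphic organs of the mouse. In males, the pituitary releases growth hormone in pulses with low troughs, and in females more continuously, and hepatocytes read this pattern through the growth hormone receptor, JAK2 and the transcription factor STAT5. Steroid- and drug-metabolizing cytochrome P450 enzymes, sulfotransferases and the male-biased major urinary proteins are the best known targets. In late lactation, prolactin, food intake and the demand for milk lipid and protein also act on the liver, so dams that nurse are not a resting female baseline.

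Total counts were 6947711 to 9365709 in sires and 9612688 to 11523373 in dams, so the depths did not overlap, and 14630 to 17917 probes had a count in sires against 17029 to 18521 in dams. The Y-linked gene Ddx3y had 213 to 493 counts in each sire and 0 in each dam. Levels are given in CPM, counts relative to the TMM-scaled total of the library, from whichever probe of a gene had the most counts. Differences are given as log2 of sires over dams. Their standard error (SE) is approximate: the size of the difference over the square root of the edgeR quasi-likelihood F statistic. Since probes differ in efficiency, levels are compared between mice and not between genes. Sire replicate 2 stood apart in acute phase transcripts, given below. Sire replicates 1, 2 and 4 had a higher median correlation with the dams (0.901, 0.896 and 0.874) than with the other sires (0.884, 0.876 and 0.868), over log2 CPM of all probes tested.

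In vehicle livers, 183 autosomal genes (1.46% of those tested) were higher in sires and 213 (1.70%) were higher in dams at an edgeR quasi-likelihood adjusted p under 0.10, and none was called in both directions on different probes; both together were 3.17% of the genes tested. These shares are the background for the counts by family and list given below. The 5 sires all lay above the 5 dams for 106 of the 183 (1.59% over all genes tested), and the 5 dams above the 5 sires for 140 of the 213 (2.61% over all genes tested). The called probe differed at least 2-fold for 94 of the genes higher in sires and 130 of those higher in dams. The median log2 difference was -0.06 over all genes, and its median size was 0.40 over all genes against 1.07 over the called genes. Scaling by total counts alone gave 119 genes higher in sires and 419 higher in dams. It moved the median over all autosomal probes tested to -0.18, from -0.06 with TMM. Upper-quartile scaling gave 239 and 182 genes, so the balance of directions depended on the scaling. Without dam replicate 4 the count higher in sires was 119, and without sire replicate 3 the count higher in dams was 135, and without sire replicate 2 the counts were 187 and 221. By chromosome, 30 of 455 genes were called on chromosome 19 (21 of them higher in dams) and 38 of 804 on chromosome 4 (29 of them higher in sires). The Cyp2c and Slc22a gene clusters lie on the former and the Mup cluster on the latter.

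**Figure D1:**
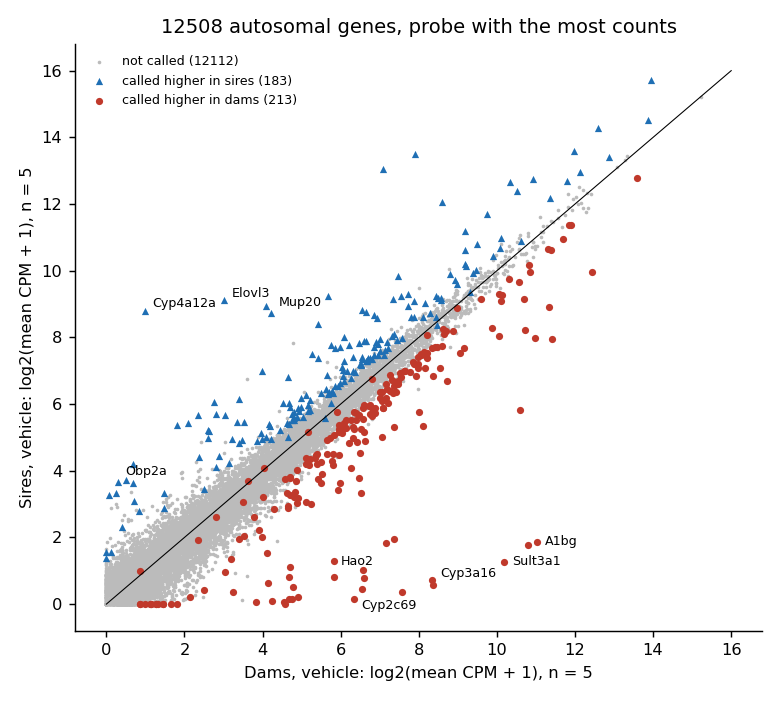
Each point is an autosomal gene, with log2(mean CPM + 1) of the 5 vehicle dams on the horizontal axis and of the 5 vehicle sires on the vertical axis, and the line marks equality. The 183 genes called higher in sires are triangles, the 213 called higher in dams are circles, and a group of the latter, with Cyp3a16 and Cyp2c69, lies near 0 in sires.

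Cytochrome P450 enzymes hydroxylate steroids, fatty acids and drugs, and several of their families held large differences. Of the 8 Cyp3a genes tested, 4 were higher in dams and 1 was higher in sires, with a median of -1.56. Cyp3a16, a steroid hydroxylase of the female and fetal liver, had 0.360, 1.297, 0.134, 1.33 and 0.142 CPM in sires 1 to 5 and 381, 454, 233, 302 and 258 CPM in dams 1 to 5. Every dam was far above every sire, and the log2 difference was -8.92 ± 0.68 (SE, edgeR adjusted p = 2.66e-13). Cyp3a44 followed the same pattern at 0.365 ± 0.142 CPM in sires and 91.8 ± 32.9 in dams (SD, n = 5 each; log2 difference -7.91 ± 0.62, adjusted p = 7.98e-13). Cyp3a41a was expressed in both, at 150.2 to 330.2 CPM in sires and 1937 to 3824 in dams (log2 difference -3.46 ± 0.27, adjusted p = 7.79e-13). Cyp3a11, the main drug-inducible member, was the exception: on its second probe it had a mean of 1073 CPM in sires and 378 in dams (log2 difference 1.51, adjusted p = 0.0194), whereas on the probe with the most counts the groups overlapped and the adjusted p was 0.183. Cyp3a25 had 637 and 588 CPM and was not called. These genes are close paralogs, and how far their probes separate them was not tested.

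Because neighbouring Cyp3a genes differed in direction and size, the 250 bases before their RefSeq start sites (GRCm38.p6, all on the minus strand of chromosome 5) are shown 5′ to 3′. Capitals mark CAAAGTCCA, a site of the type bound by the hepatocyte nuclear receptor HNF4α, searched on both strands and held by 0.384% of the 32851 promoter windows of this length.
Cyp3a11, chr5:145879855-145880104: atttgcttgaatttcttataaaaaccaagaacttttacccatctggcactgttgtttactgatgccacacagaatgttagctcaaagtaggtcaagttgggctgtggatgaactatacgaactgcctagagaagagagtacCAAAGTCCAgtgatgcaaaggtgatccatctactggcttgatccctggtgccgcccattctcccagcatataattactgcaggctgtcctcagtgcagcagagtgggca
Cyp3a16, chr5:145469724-145469973: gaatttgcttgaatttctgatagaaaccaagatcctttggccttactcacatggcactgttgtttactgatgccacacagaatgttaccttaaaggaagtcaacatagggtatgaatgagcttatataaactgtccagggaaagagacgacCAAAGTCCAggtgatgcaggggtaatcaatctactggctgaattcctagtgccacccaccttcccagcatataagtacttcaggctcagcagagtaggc
Cyp3a41a, chr5:145720137-145720386: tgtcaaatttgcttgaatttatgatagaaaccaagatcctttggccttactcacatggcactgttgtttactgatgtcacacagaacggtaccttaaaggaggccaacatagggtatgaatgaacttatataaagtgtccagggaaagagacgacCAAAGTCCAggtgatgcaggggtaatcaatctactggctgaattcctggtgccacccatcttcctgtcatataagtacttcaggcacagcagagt
Cyp3a44, chr5:145805875-145806124: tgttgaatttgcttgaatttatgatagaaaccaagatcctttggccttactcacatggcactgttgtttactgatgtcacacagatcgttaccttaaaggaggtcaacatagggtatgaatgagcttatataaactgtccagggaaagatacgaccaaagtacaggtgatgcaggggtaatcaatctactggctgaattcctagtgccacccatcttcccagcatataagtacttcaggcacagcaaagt
The match began 109 bases before the start in Cyp3a11, 99 in Cyp3a16 and 95 in Cyp3a41a, and these exact letters were not in the Cyp3a44 window. Over the 250 bases, Cyp3a16 was 92.9% identical to Cyp3a44 and 91.4% to Cyp3a41a, against 77.2% to Cyp3a11. Over all called genes with a window, close paralogs among them, the letters were in 7 of 162 higher in dams (4.32%) and 2 of 145 higher in sires (1.38%). Here a gene counted if any of its windows held the letters. These shares of genes and the share of single windows above are therefore unlike measures.

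In the Cyp2c family of arachidonic acid epoxygenases and steroid hydroxylases, 6 of 14 genes were higher in dams and none in sires, with a median of -0.75. Cyp2c69 had 0.120, 0, 0.134, 0.266 and 0 CPM in sires 1 to 5 and 77.8, 52.3, 161, 92.2 and 15.8 in dams 1 to 5. All sires were at or next to 0, and the log2 difference was -9.39 ± 0.69 (adjusted p = 1.04e-13). Cyp2c39, a retinoic acid hydroxylase, was 251 ± 125 CPM in sires and 2027 ± 147 in dams (log2 difference -3.01 ± 0.31, adjusted p = 2.27e-09), and Cyp2c40 was 11.9 and 28.2 CPM (log2 difference -1.25 ± 0.31, adjusted p = 0.0148). Cyp2c29, an abundant member, was not called, at 1359.5 and 1266 CPM. Cyp2c69 and Cyp2c40, on the minus strand of chromosome 19, also held these HNF4-type letters. The 41 bases cut around the match were alike base for base, although the genes differed in the size of their difference. The match began at position -75 from the start in Cyp2c69 and -45 in Cyp2c40, and the rest of the windows was not compared.
Cyp2c69, chr19:39886820-39886860: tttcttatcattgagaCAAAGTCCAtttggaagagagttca
Cyp2c40, chr19:39812835-39812875: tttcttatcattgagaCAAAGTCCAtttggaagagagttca

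All 3 Cyp2b genes tested were higher in dams, as were 3 of 4 Cyp2a genes. Cyp2b9 had 2.88, 1.297, 0.134, 4.65 and 5.54 CPM in sires and 136, 157, 109, 204 and 212 CPM in dams. The groups were far apart, with a log2 difference of -5.82 ± 0.46 (adjusted p = 9.57e-13). Cyp2b13 was almost absent from sires, with 2 counts in all 5 together, and had 2.72 to 48.2 CPM in dams. Cyp2b10, a target of the xenobiotic receptor CAR, was 31.3 ± 17.8 and 131 ± 34.9 CPM (adjusted p = 0.0384, but 0.124 without sire replicate 3 and 0.132 without sire replicate 4). Cyp2a4, a testosterone 15α-hydroxylase, was 55.1 CPM in sires and 1548 in dams (log2 difference -4.81 ± 0.62, adjusted p = 4.11e-07), and Cyp2a22 was 0 to 0.240 and 0.410 to 54.6 CPM. Cyp17a1, the steroid 17α-hydroxylase, was 0 to 2.27 CPM in sires and 104 to 121 CPM in 4 dams, while dam replicate 3 had 11.7 CPM (log2 difference -6.48 ± 0.92, adjusted p = 3.85e-06).

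The P450 genes higher in sires were fewer. Cyp4a12a, an androgen-linked fatty acid ω-hydroxylase that makes 20-HETE, had 400.1, 247, 703, 485 and 393 CPM in sires 1 to 5 and 0.419, 1.43, 2.43, 0.492 and 0.0833 CPM in dams 1 to 5. No dam came near any sire, and this was the largest difference among named genes higher in sires (log2 difference 8.83 ± 0.70, adjusted p = 8.85e-13). Its neighbour Cyp4a12b was 17.4 ± 10.5 and 0.614 ± 0.845 CPM (adjusted p = 4.11e-05). Cyp2d9, a testosterone 16α-hydroxylase, had 496, 409, 529, 605 and 418 CPM in sires and 3.67, 28.9, 21.7, 16.6 and 8.83 CPM in dams, with a log2 difference of 4.95 ± 0.52 (adjusted p = 3.34e-09). Of the 7 Cyp2d genes, 1 was higher in dams and 1 in sires, the latter count being 2 without sire replicate 2 or 3, with DESeq2 and with upper-quartile scaling.

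**Figure D2:**
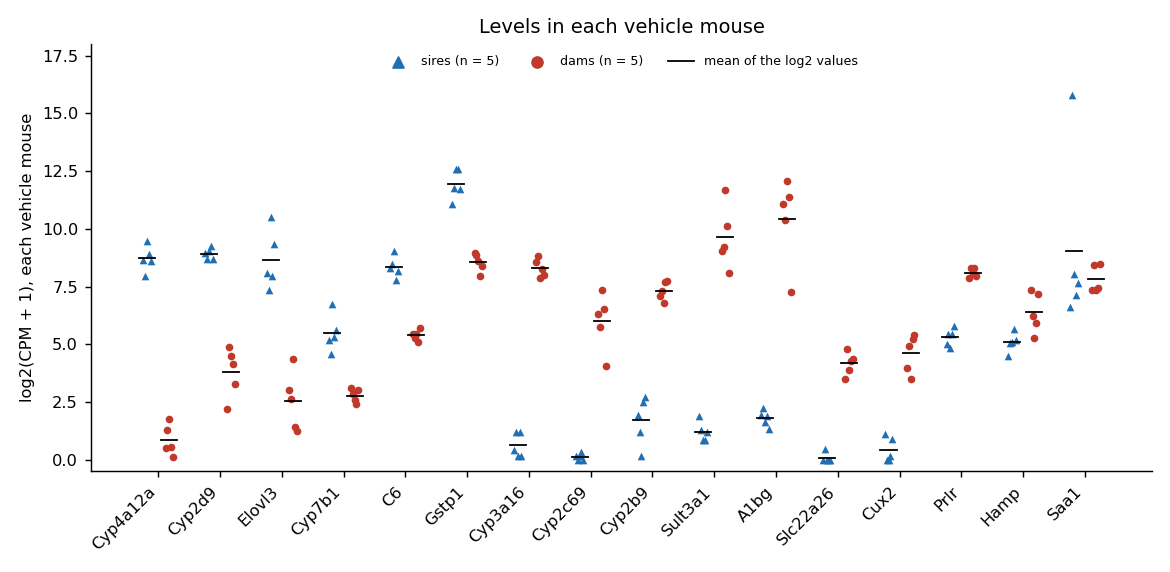
Each point is 1 vehicle mouse, with log2(CPM + 1) of 16 genes on the vertical axis, sires as triangles, dams as circles and bars at the mean of the log2 values. Cyp3a16, Cyp2c69, Sult3a1, A1bg, Slc22a26 and Cux2 lie low in all 5 sires, and Saa1 in sires depends on replicate 2 alone at 56724 CPM.

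Major urinary proteins (MUPs) are small lipocalins that carry pheromones into urine and are secreted by the liver in very large amounts. Of the 14 Mup genes tested, 12 were higher in sires and none in dams, with a median log2 difference of 1.86. Probes for this cluster took 11.1%, 6.15%, 14.3%, 10.7% and 13.3% of all counts in sires 1 to 5 and 2.99%, 5.58%, 4.65%, 2.18% and 2.11% in dams 1 to 5. The lowest sire was above the highest dam by a small margin, and the means were 11.1 ± 3.15% and 3.50 ± 1.55% (SD, n = 5 each; exact two-sided permutation p = 0.00794, the smallest this design can give). Mup20, the pheromone darcin, was 423 ± 304 CPM in sires and 17.6 ± 8.73 in dams (log2 difference 4.59 ± 0.44, adjusted p = 2.17e-10), and Mup21 was 40.3 ± 26.01 and 2.502 ± 1.75 CPM (adjusted p = 0.000379). Mup3 was 2835 to 9651 CPM in sires and 1024 to 1524 in dams (log2 difference 2.32 ± 0.32), and the abundant Mup13 was 35881 to 65945 and 8956 to 24888 CPM (log2 difference 1.76 ± 0.29). Mup genes are nearly identical to each other, so the values of single members are uncertain. Obp2a, a lipocalin like the MUPs, was 3.46 to 16.8 CPM in sires and 0 to 0.838 in dams.

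Sulfotransferases, which add sulfate to steroids, bile acids and phenols, were called in 1 direction alone. Of 14 tested, 8 were higher in dams and none in sires, with a median of -3.26. Sult2a1, which sulfates hydroxysteroids and bile acids, had 2.40, 2.34, 2.94, 2.26 and 1.99 CPM in sires and 2246, 1601, 1001, 1770.0 and 2288 CPM in dams. Each sire was near 0 and each dam above 1000 CPM, and the log2 difference was -9.53 ± 0.83 (adjusted p = 1.34e-11). Sult3a1 had 2.76, 1.43, 0.803, 0.797 and 1.28 CPM in sires and 534, 594, 3312, 1107 and 271 CPM in dams. Dam replicate 3 was highest, and the log2 difference was -9.65 ± 0.95 (adjusted p = 5.08e-10). Sult2a3 had no count in any sire and 20.6, 17.2, 1.97, 42.7 and 31.2 CPM in dams 1 to 5, which makes it at least 289-fold higher in dams against a floor of 3 counts over the 5 sires. Sult2a2 was 0.291 ± 0.339 and 188 ± 34.5 CPM (adjusted p = 4.57e-17). Sult1a1, the phenol sulfotransferase, was expressed in both, at 313 ± 101 and 945 ± 160.2 CPM (log2 difference -1.59 ± 0.25, adjusted p = 1.88e-05), and Sult1e1, the oestrogen sulfotransferase, was 0 to 1.56 and 2.72 to 28.7 CPM (adjusted p = 0.0279).

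Fmo1, a flavin monooxygenase that oxidizes drugs, was 134 CPM in sires and 373 in dams (log2 difference -1.47 ± 0.23, adjusted p = 3.11e-05). Hao2, a peroxisomal hydroxyacid oxidase, was 0 to 2.92 CPM in sires and 35.5 to 121 in dams (log2 difference -7.05 ± 0.68, adjusted p = 3.68e-10). A1bg, a secreted protein of the immunoglobulin superfamily, had 2.88, 3.76, 2.14, 2.79 and 1.56 CPM in sires and 2134, 1315, 4255, 2644 and 155 CPM in dams. Dam replicate 5 was the lowest dam but still far above every sire (log2 difference -9.63 ± 0.81, adjusted p = 5.01e-12). Gm49366, a predicted gene of unassigned role, was 0 to 0.259 CPM in sires and 12.7 to 44.1 in dams.

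Glutathione S-transferases, which conjugate electrophiles, went partly the other way, with 3 of 22 higher in sires and 1 in dams and a median of 0.06. Gstp1, the π-class enzyme, had 2132, 3501, 6145, 6209.7 and 3376 CPM in sires and 502, 460.2, 387, 246 and 335 CPM in dams. Every sire was above every dam, with a log2 difference of 3.47 ± 0.25 (adjusted p = 6.09e-14). Gstp2, its close paralog, was 65.3 ± 34.5 and 5.75 ± 3.04 CPM (adjusted p = 7.82e-08). Among other conjugating enzymes, Ugt1a1, which glucuronidates bilirubin, was 566 ± 133 CPM in sires and 1641 ± 389 in dams (log2 difference -1.54 ± 0.18, adjusted p = 5.33e-08), while the carboxylesterase Ces3a was 258 ± 29.8 and 67.1 ± 22.6 CPM (log2 difference 1.94 ± 0.20, adjusted p = 1.39e-09). The UDP-glucuronosyltransferases as a whole were split, with 2 of 19 called in each direction (4 in sires and 3 in dams with DESeq2).

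Of 23 organic ion transporters of the SLCO and SLC22 families, 1 was higher in sires (none with DESeq2) and 3 in dams. Slc22a26 had 3 counts in all sires together, all in replicate 2, and 10.5, 27.2, 13.95, 18.5 and 19.6 CPM in dams (adjusted p = 8.85e-10). Slc22a27 was 0 to 1.82 and 43.4 to 69.6 CPM (log2 difference -6.16 ± 0.73, adjusted p = 7.28e-08), whereas Slc22a28, a member of the same cluster on chromosome 19, was 4.41 to 17.2 CPM in sires and 0 to 1.40 in dams (log2 difference 4.80 ± 1.06, adjusted p = 0.00552). Neighbours in this cluster thus differed in opposite directions. Slco1a1, a male-biased carrier of organic anions, had sires of 104 to 245 CPM and dams of 1.499 to 96.1 CPM that did not overlap, but its adjusted p was 0.227. The bile salt importer Slc10a1 was 292 ± 34.03 and 325 ± 67.6 CPM and was not called.

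**Figure D3:**
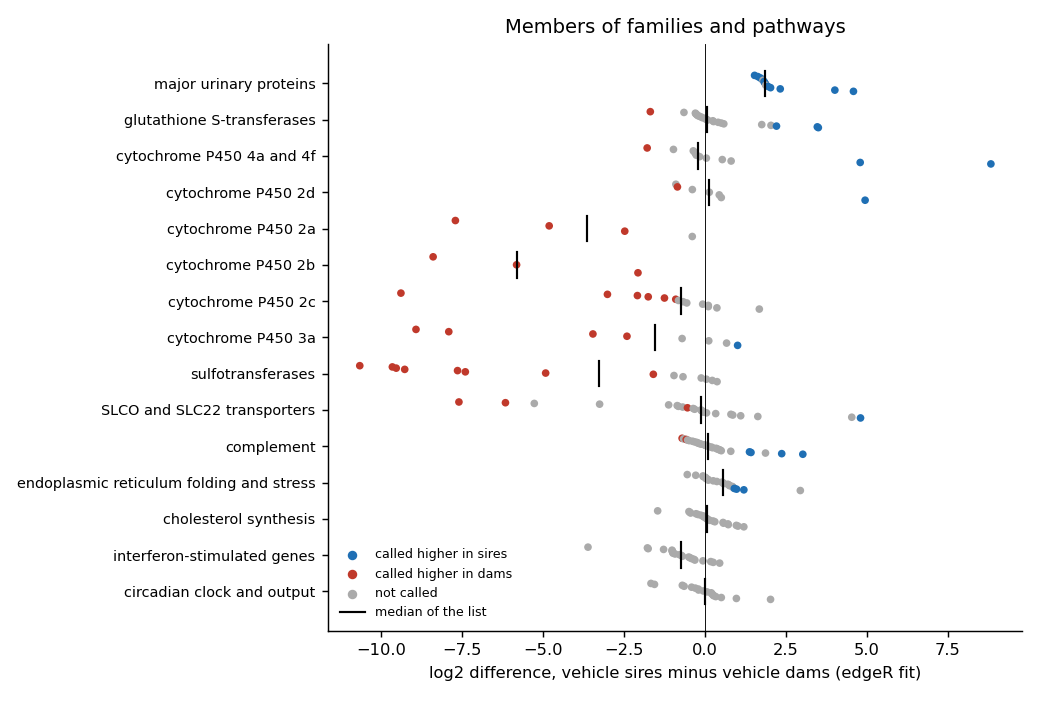
Each point is a tested gene, placed by its log2 difference (vehicle sires minus vehicle dams) on the horizontal axis, in rows by family or pathway, with bars at the median of the row. Major urinary proteins lie to the right with a median of 1.86, sulfotransferases to the left with a median of -3.26, and the cholesterol, interferon and circadian rows hold no called gene.

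Of 20 genes of growth hormone, prolactin and IGF signalling, 1 was higher in sires and 3 were higher in dams. Prlr, the prolactin receptor, had 31.8, 42.9, 27.7, 42.3 and 54.7 CPM in sires and 236, 312, 268, 318 and 251 CPM in dams. All dams were above all sires by more than the spread within a group, with a log2 difference of -2.80 ± 0.30 (adjusted p = 8.02e-09). Egfr, the epidermal growth factor receptor, was 631 ± 167 CPM in sires and 211 ± 89.4 in dams (log2 difference 1.58 ± 0.28, adjusted p = 0.000244), and Lifr, the leukaemia inhibitory factor receptor, was 134 and 282 CPM (adjusted p = 0.00964). Socs2, a STAT5 target that dampens growth hormone signalling, was 3.69 and 13.98 CPM (adjusted p = 0.0321, but 0.283 without dam replicate 4, 0.106 without sire replicate 2 and 0.108 without sire replicate 5). The growth hormone receptor Ghr (119 and 128 CPM), Igf1 (29.5 and 33.5 CPM) and Stat5b (14.8 and 25.8 CPM) did not pass the test.

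Among 21 regulators of sex-biased transcription, 2 were higher in sires and 4 in dams. Cux2, a homeobox repressor of male-biased genes found in female liver, had 1.201, 0, 0, 0.133 and 0.853 CPM in sires and 14.7, 29.8, 10.4, 36.6 and 40.8 CPM in dams. The sires were at or near 0 and the log2 difference was -5.86 ± 0.79 (adjusted p = 1.2e-06). Trim24, a nuclear receptor cofactor, was 15.9 and 75.6 CPM (log2 difference -2.25 ± 0.38, adjusted p = 0.000117). Foxa3, a forkhead factor of hepatocytes, was 235 ± 76.8 CPM in sires and 95.3 ± 14.4 in dams (log2 difference 1.30 ± 0.24, adjusted p = 0.000422). Bcl6, a STAT5-opposing repressor usually described as male-biased, overlapped widely at 31.2 to 219 and 13.8 to 219 CPM and was not called. In all, 21 of 33 genes on a list of male-pattern reporters were higher in sires and 1, Socs2, was higher in dams, with a median of 2.32. On the female-pattern list 36 of 44 were higher in dams and none in sires, with a median of -3.59. Over all genes tested, 1.46% were higher in sires and 1.70% in dams. Both lists were chosen with earlier results of these data known, so the counts are a description and not independent support.

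C6, C8a, C8b and C9, whose products join the membrane attack complex, were higher in sires and were the only calls in that direction among 28 complement genes, of which Mbl2 and Cfi were higher in dams. The 2 calls higher in dams were 5 without sire replicate 2, 1 without sire replicate 3, none without sire replicate 5, and 4 with DESeq2 or total counts alone. C6 had 311, 351, 532, 221 and 284 CPM in sires and 42.9, 38.2, 43.4, 33.7 and 50.96 CPM in dams. The groups were far apart for their spread, with a log2 difference of 3.02 ± 0.23 (adjusted p = 1.94e-13). C8a was 911 ± 233 and 176 ± 72.4 CPM (log2 difference 2.37 ± 0.28, adjusted p = 6.31e-08), C9 was 1563 ± 366 and 584 ± 146 CPM (log2 difference 1.42 ± 0.24), and C8b was 207 to 242 and 41.2 to 183 CPM (log2 difference 1.37 ± 0.27). Of 25 coagulation genes, none was higher in sires and 3 were higher in dams, but this count moved with the setting. It was 1 without any 1 of sire replicates 1, 3 and 5 or dam replicates 2, 4 and 5, 5 without sire replicate 2 or dam replicate 3, 7 with DESeq2 and 8 with total counts alone.

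The acute phase calls higher in sires rested on 1 animal. Saa1, the serum amyloid A gene that liver induces in inflammation, had 98.2, 56724, 262, 138 and 199 CPM in sires 1 to 5 and 164, 343, 161, 173 and 358 CPM in dams 1 to 5. Sire replicate 2 was alone at this level, and Saa2 and Orm2 were likewise high only there, at 41912 and 3016 CPM against 26.9 to 92.97 and 5.28 to 12.7 CPM in the other sires. With all mice, 3 of 25 acute phase genes were called higher in sires (1 with DESeq2) and 1 in dams. Without sire replicate 2, none was higher in sires and 8 were higher in dams, the log2 difference of Saa1 was -0.44 (adjusted p = 0.979), and that of Orm2 turned to -2.55 (adjusted p = 0.0350). With sire replicate 2 kept, Orm2 was not called without any 1 of the 5 dams either (adjusted p = 0.125 to 0.173). The same mouse had the lowest MUP share of the sires and the lowest Mup20 level. Summed neutrophil markers ran from 2.26 to 96.8 CPM in sires and 23.99 to 42.4 CPM in dams, their median log2 difference was 0.97 with all mice and -1.34 without sire replicate 2, and the part of these cells in the result was not tested.

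Of 24 genes of folding in the endoplasmic reticulum, 3 (Herpud1, Hspa5 and Creld2) were higher in sires and none in dams, with a median of 0.54 against -0.06 over all genes. Only 1 was called without sire replicate 3, without any 1 of dam replicates 1, 2, 4 and 5, or with total counts alone. Hspa5, the main lumenal chaperone, was 4986 to 9931 CPM in sires and 2320.5 to 6165 in dams, which overlapped (log2 difference 0.91 ± 0.27, adjusted p = 0.0804). It was not called without dam replicates 1, 2, 4 or 5 or without sire replicate 3 (adjusted p = 0.128 to 0.330). Its other probes were not called, with log2 differences of 0.19 and 0.32 (adjusted p = 0.983 and 0.876). Hspa1b, the inducible cytosolic HSP70, had 30.7, 32.6, 10.7, 58.6 and 78.9 CPM in sires and 2.10, 0.614, 5.43, 0.688 and 7.49 CPM in dams, with all sires above all dams (log2 difference 3.67 ± 0.67, adjusted p = 0.000332). Hsph1, chosen after its values were seen, was 378 ± 122 CPM in sires and 122 ± 110.5 in dams, with dam replicate 3 at 319 CPM (adjusted p = 0.00734).

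Of 15 genes of bile acid synthesis and conjugation, 4 were higher in sires and 3 in dams. Cyp7b1, the oxysterol 7α-hydroxylase of the acidic pathway, had 35.5, 23.1, 107, 39.1 and 48.2 CPM in sires and 7.54, 6.14, 4.96, 4.33 and 7.08 CPM in dams. The sires were all above the dams, with a log2 difference of 3.07 ± 0.45 (adjusted p = 6.04e-06). Cyp8b1, the 12α-hydroxylase that sets the share of cholic acid, was 604 and 186 CPM (adjusted p = 0.0272), but dam replicate 3 reached into the range of the sires at 399 CPM, and without dam replicates 2 or 4 the adjusted p was 0.100 and 0.112. Cyp39a1, the 24-hydroxycholesterol 7α-hydroxylase, was 7.27 and 33.7 CPM (log2 difference -2.21 ± 0.56, adjusted p = 0.0205). Cyp7a1, the rate-limiting enzyme of the classical pathway, was 125 ± 78.3 and 90.9 ± 50.9 CPM and was not called. Scp2, whose gene encodes a peroxisomal thiolase and a sterol carrier protein, was higher in sires on all 4 of its probes, but by unequal amounts: the log2 differences were 0.59, 0.95, 2.98 and 3.23. On the last of these probes the means were 1452 CPM in sires and 154.9 CPM in dams, and on the first 483 and 322 CPM.

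In lipid metabolism, Elovl3, an elongase of very long chain fatty acids, had 268, 161, 1448, 245 and 652 CPM in sires and 7.23, 5.22, 19.7, 1.67 and 1.42 CPM in dams. Sires varied widely but did not overlap the dams (log2 difference 6.30 ± 0.74, adjusted p = 5.26e-08). Acot3, a peroxisomal acyl-CoA thioesterase, was 0.134 to 8.05 CPM in sires and 42.1 to 234 in dams (log2 difference -5.76 ± 0.72, adjusted p = 2.4e-07), and the fatty acid translocase Cd36 was 3.61 to 26.9 and 19.3 to 93.9 CPM, which overlapped (log2 difference -2.45 ± 0.44, adjusted p = 0.00026). Hadh, a mitochondrial β-oxidation dehydrogenase, was 92.3 ± 10.9 and 164 ± 10.6 CPM (log2 difference -0.83 ± 0.21, adjusted p = 0.0191). Apoa4, an apolipoprotein of triglyceride-rich particles, was 185 ± 37.2 and 530.4 ± 57.8 CPM (log2 difference -1.52 ± 0.37, adjusted p = 0.0132). In fatty acid oxidation as a whole, 3 of 33 genes were higher in dams and none in sires, against 3 and 4 with DESeq2, 5 and none with total counts alone, and 3 and 2 without sire replicate 3. With all mice and TMM scaling, edgeR called none of 23 cholesterol synthesis genes (6 at an unadjusted p under 0.05). It called 7 without dam replicate 3, 2 without sire replicate 5 and 1 with either upper-quartile or DESeq2 scaling, and DESeq2 called 4, all of them higher in sires.

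Among steroid enzymes and carriers, Srd5a1, the 5α-reductase, was 43.2 ± 11.9 CPM in sires and 10.4 ± 2.51 in dams (log2 difference 2.05 ± 0.30, adjusted p = 6.89e-06), and Serpina6, the corticosteroid-binding globulin, was 263 ± 107 and 1057 ± 389.5 CPM (log2 difference -2.01 ± 0.28, adjusted p = 2.19e-06). Csad, which makes hypotaurine on the way to taurine, had 59.6, 43.7, 51.4, 72.8 and 21.6 CPM in sires and 1.89, 2.76, 13.5, 1.28 and 0.999 CPM in dams. Dam replicate 3 was the highest dam and still below all sires (log2 difference 3.60 ± 0.53, adjusted p = 8.37e-06). Sema3e, a secreted guidance factor, was 3.24 to 22.2 and 0 to 1.22 CPM (adjusted p = 0.0455, and 0.103 to 0.135 without any 1 of sire replicates 1 and 4 or dam replicates 1, 2 and 4). Gm10681, a predicted gene, was 125 and 14.9 CPM (adjusted p = 0.00289).

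Hamp encodes hepcidin, the liver hormone that closes the iron exporter ferroportin. It had 21.6, 31.9, 33.8, 50.5 and 35.7 CPM in sires and 162, 73.01, 38.2, 60.00 and 143 CPM in dams. The groups overlapped through dam replicate 3, and the log2 difference was -1.46 ± 0.31 (adjusted p = 0.00289). Its copy Hamp2 had 0.721, 1.297, 0, 1.33 and 2.56 CPM in sires and 58.1, 0, 0, 22.2 and 44.8 CPM in dams. Dam replicates 2 and 3 had none, and the call (log2 difference -4.40 ± 1.32, adjusted p = 0.0809) was lost, with adjusted p from 0.101 to 0.206, on leaving out any 1 of the 5 sires or of dam replicates 1, 4 and 5. Of 19 iron genes, 1 was higher in sires and 3 in dams. The call in sires was lost without any 1 of sire replicates 2, 3 and 5 or dam replicates 1, 2, 4 and 5, and the 3 in dams were 1 without sire replicate 1, sire replicate 5 or dam replicate 4 and 5 with total counts alone. Slc40a1, the gene of ferroportin, was among the 3 (adjusted p = 0.0479, up to 0.215 without 1 mouse). The upstream windows of the pair, both on the minus strand of chromosome 7, are shown because the copies differed in how many dams expressed them. Like all sequences printed here, they come from the reference genome, and the sequences of these outbred mice were not read. Capitals mark TTCNNNGAA, the palindrome bound by STAT factors, held by 7.02% of all windows.
Hamp, chr7:30944030-30944279: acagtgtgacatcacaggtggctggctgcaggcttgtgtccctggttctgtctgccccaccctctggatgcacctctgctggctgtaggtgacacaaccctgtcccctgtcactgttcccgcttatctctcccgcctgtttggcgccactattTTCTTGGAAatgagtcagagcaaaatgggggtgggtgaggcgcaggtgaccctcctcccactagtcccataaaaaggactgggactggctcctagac
Hamp2, chr7:30924182-30924431: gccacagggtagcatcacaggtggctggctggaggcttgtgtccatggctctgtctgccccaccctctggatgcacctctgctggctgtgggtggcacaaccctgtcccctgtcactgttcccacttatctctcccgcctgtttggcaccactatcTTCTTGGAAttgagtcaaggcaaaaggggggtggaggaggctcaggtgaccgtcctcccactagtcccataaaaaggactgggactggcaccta
The windows were 89.8% identical, and the match began 97 bases before the start of Hamp and 94 before that of Hamp2. Over all called genes with a window, these letters were in 17 of 162 higher in dams (10.5%) and 9 of 145 higher in sires (6.21%). A gene again counted if any of its windows held the letters, unlike the share of single windows. The stretches of A1bg, Sult3a1, Slc22a26 and C8a below were picked by hand and cut around a match. They therefore do not show how often called genes hold the letters.
A1bg, chr15:60921330-60921370, minus strand: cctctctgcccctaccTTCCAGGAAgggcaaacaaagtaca
Sult3a1, chr10:33857597-33857637, plus strand: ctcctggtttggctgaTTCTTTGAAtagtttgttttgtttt
Slc22a26, chr19:7802784-7802824, minus strand: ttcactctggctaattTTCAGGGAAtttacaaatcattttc
C8a, chr4:104876602-104876642, minus strand: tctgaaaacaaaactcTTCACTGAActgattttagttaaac

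With all mice and TMM scaling, edgeR called no gene among 26 cell cycle, 18 circadian, 14 pericentral hepatocyte and 22 interferon-stimulated genes. At an unadjusted p under 0.05 there were 3, 1, 2 and 3, and DESeq2 called 1, 0, 2 and 1, each higher in dams. The 10 vehicle mice fitted alone gave 1 in each list, also higher in dams, total counts alone gave 1 cell cycle and 2 pericentral genes, and leaving out 1 mouse gave at most 1, or 2 pericentral genes without sire replicate 2. The interferon genes had a median of -0.75. Hepatocyte markers summed to 35391 to 51591 CPM in sires and 33075 to 45741 in dams. Summed markers overlapped between sires and dams for every other cell type examined: 117 to 510.1 and 247 to 522 CPM for Kupffer cells and macrophages, 298 to 644 and 322 to 1107 for stellate cells and fibroblasts, 533 to 769 and 645 to 732 for sinusoidal endothelium, and 7.84 to 90.7 and 12.9 to 80.8 for cholangiocytes, whose marker Epcam was at 0 in all 10 mice. Elane (neutrophils) and Lep (adipocytes) were likewise at 0 in all 10. Erythroid markers summed to 23.8 to 97.8 CPM in sires and 11.7 to 45.04 in dams, lymphocyte and plasma cell markers to 9.63 to 54.1 and 19.3 to 41.8, adipocyte markers to 13.6 to 34.2 and 14.7 to 30.4, and exocrine pancreas markers to 0.669 to 76.7 and 1.67 to 53.2. With all mice, only Ly6g, a neutrophil marker, was called (higher in dams) among the markers of cells other than hepatocytes, and no neutrophil marker was called without any 1 of sire replicates 1, 3 and 4 or dam replicate 2. Single markers could lean 1 way although the sums overlapped. All 11 autosomal Kupffer cell and macrophage markers tested (median log2 difference -0.49) and 10 of 12 endothelial markers (median -0.16) were lower in sires. All 8 exocrine pancreas markers tested were higher in sires (median 0.44), and none in these lists was called. The part of these cells in the differences above was not tested.

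A separate set of 5 sires and 5 dams at 0.1 mg/kg HFPO-DA, fitted alone, had 446 autosomal genes higher in sires (3.57%) and 579 higher in dams (4.63%). The 10 vehicle mice fitted alone had 169 and 230 (3.19% in both directions together). Of the vehicle calls, 265 (66.4%) were called the same way at 0.1 mg/kg, which was 25.9% of the calls there, and 2, the canalicular export pump gene Abcc2 and the NF-κB inhibitor gene Nfkbia, both named after their values were seen, were called the opposite way. A call could rest on any probe, so opposite calls of a gene may come from different probes. On the Abcc2 probe that was higher in vehicle sires, means were 57.2 CPM in sires and 34.5 in dams. On its probe with the most counts they were 329 and 352 CPM, and on the remaining probe 15.7 and 18.6 CPM. Among called genes whose mice did not overlap and whose higher mean was at least 10 CPM, all 30 with the largest differences in vehicle mice, 15 in each direction, were called the same way. The log2 differences at 0.1 mg/kg were 9.53 for Cyp4a12a, -9.002 for Cyp3a16, 3.44 for C6 and -3.10 for Prlr. In contrast, Cebpb, a leucine zipper factor called higher in vehicle sires (log2 difference 1.08 ± 0.25), had -0.04 at 0.1 mg/kg (adjusted p = 0.953) and Socs2 had 0.69 (adjusted p = 0.332). Orm2, which was not called in the vehicle mice fitted alone (log2 difference 3.63, adjusted p = 0.245), had -0.76 (adjusted p = 0.687). Whether the 2 sets of mice differed was not tested.

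**Figure D4:**
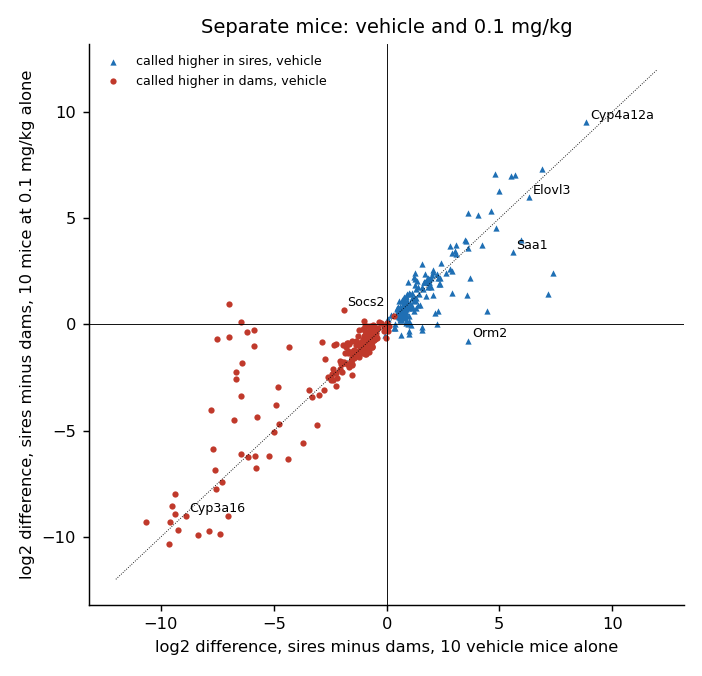
Each point is a gene called in vehicle livers, with its log2 difference (sires minus dams) in the 10 vehicle mice fitted alone on the horizontal axis and in the 10 separate mice at 0.1 mg/kg on the vertical axis, and the dotted line marks equality. Cyp4a12a and Cyp3a16 lie near the line at both ends, whereas Orm2 and Socs2 change side.

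At 5 mg/kg, with 4 mice of each sex, several of these genes had other mean levels than at 0 mg/kg in at least 1 cohort. Cyp4a12a in dams was 197 ± 82.8 CPM (SD, n = 4) against 0.972 ± 0.959 in vehicle dams, and 479 ± 46.8 against 446 ± 167 in sires. Cyp3a16 in dams was 37.9 ± 15.8 CPM at 5 mg/kg against 325 ± 91.2 at 0 mg/kg. Mup20 in sires was 159 ± 45.4 against 423 ± 304 CPM, and C6 was 169 ± 64.4 against 339.8 ± 117 CPM. These levels are given as a description, with no test.

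**Figure D5:**
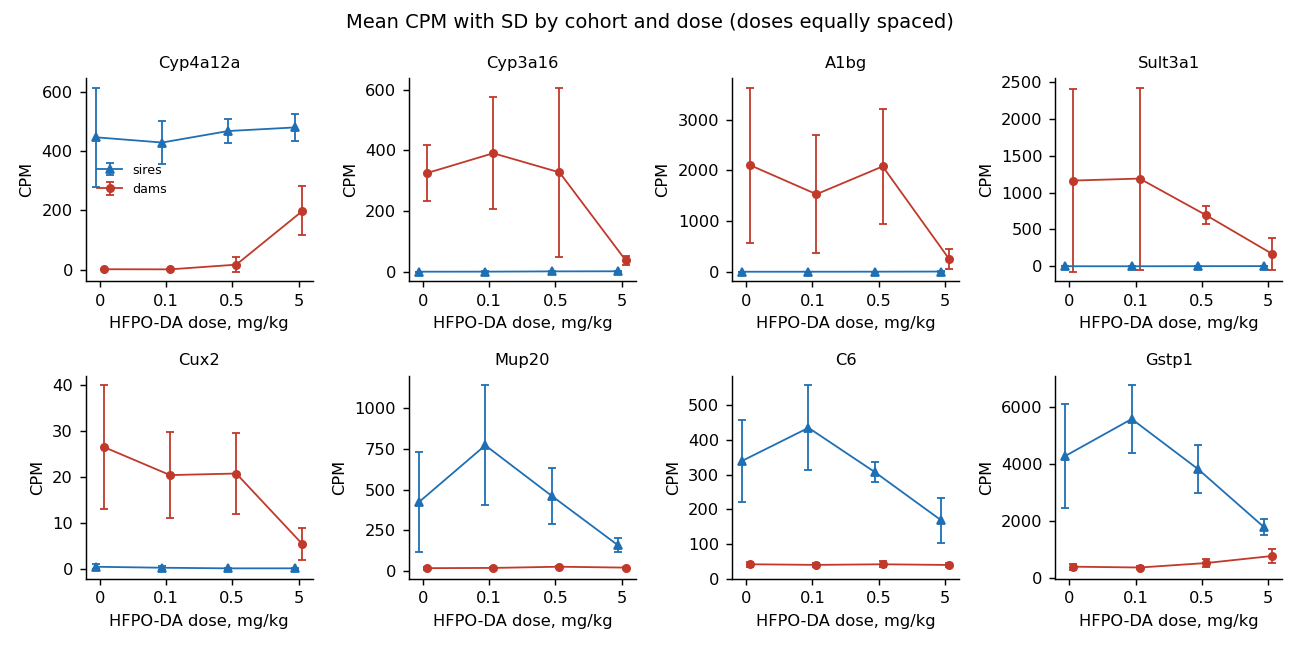
Points are mean CPM and bars the SD of 4 or 5 mice for 8 genes, with the dose groups (vehicle first, 5 mg/kg last) equally spaced on the horizontal axis, with sires as triangles and dams as circles. In dams, Cyp3a16 is lowest at 5 mg/kg, and Cyp4a12a is highest there.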

How the data were processed

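Liver sections were assayed by TempO-Seq, and the authors deposited raw counts per probe for 37 mice, 30146 probes in all, without normalization. The paper removed further sequenced samples for low depth or few probes, which left 4 mice in some groups. The submitters' processing notes name bcl2fastq 2.17.1.14 and Bowtie; the genome build is not given in the sources used here. Mice were grouped by the sex and treatment labels. Gene positions came from GENCODE M21 (GRCm38) by symbol, matching 21336 of 21450 symbols, with RefSeq giving 5 by symbol and 35 by synonym and 74 left without a position, and promoter sequences from RefSeq (GRCm38.p6).

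The counts of all 37 mice entered 1 edgeR fit (version 4.0.16, R 4.3.3) with a mean for each of 8 groups of sex and dose, after filterByExpr had kept 18570 probes and TMM had set the scaling. Vehicle sires were compared with vehicle dams by its quasi-likelihood test. P-values were adjusted over all probes by the Benjamini-Hochberg method, and the threshold was 0.10. A gene was called where at least 1 probe was. The study's own comparisons were made with DESeq2, here an alternative (1.42.0). Log2 differences are fitted values, which for genes near 0 in a group depend on the prior count. Replicates are separate animals. The floor of 3 counts covers counting error only. Named genes were the 15 with the largest difference in each direction among called genes whose mice did not overlap and whose higher mean was at least 10 CPM, members of the gene lists, Y-linked genes and cell type markers. The comparison, the gene lists and the genes named were chosen with earlier results of these data known, and some of the genes are not reported here. Simulated data of 18570 probes were made for this comparison. In them, edgeR recovered 43 of 100 probes changed 2-fold and 76 of 100 changed 4-fold, with 10 false calls. DESeq2 recovered 48 and 82 with 48 false calls. The changed probes were drawn only from those above a minimum CPM, so recovery at lower levels was not measured. Alternatives were other scalings, filters and thresholds, DESeq2, the vehicle mice alone, summed probes, thinned counts and leaving out each mouse.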

Additional observations from a re-analysis of the deposited data

Results flagged for a closer look

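Among the genes named, 19 of 214 groups of 5 mice held 1 mouse whose gap to the nearest other, over the range of the group, passed Dixon's limit, which chance alone passes in about 1 in 20 groups. Values are CPM, and no cause was tested.

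Sire replicate 2 was high for Saa1 (56724, the others 98.2 to 262), Saa2 (41912, the others 26.9 to 92.97) and Orm2 (3016, the others 5.28 to 12.7), and was the only sire with a count for Slc22a26 (0.389). Dam replicate 3 was set apart for 6 genes of different families. It was high for Sult3a1 (3312, the others 271 to 1107), Cyp8b1 (399, the others 112 to 154), Bcl6 (219, the others 13.8 to 52.8), Hsph1 (319, the others 65.4 to 91.9) and Csad (13.5, the others 0.999 to 2.76), and low for Cyp17a1 (11.7, the others 104 to 121).

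Dam replicate 5 was high for Sult2a5 (27.98) and low for Hao2 (35.5), dam replicate 4 was high for Socs2 (31.9) and Acaca (113.7), and dam replicate 2 was the only dam with a count for Hsd3b5 (0.922). Sire replicate 3 was high for Hspa5 (9931, the others 4986 to 6096) and Sult3a2 (0.669), sire replicate 4 for Hao2 (2.92) and sire replicate 1 for Acot3 (8.05).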

How the results depend on the processing

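Counts of called genes moved by over 1.5 times in few settings. With total counts alone, 119 genes were higher in sires and 419 in dams, against 183 and 213 with TMM. DESeq2 gave 343 higher in sires. Leaving out 1 mouse gave 119 to 204 genes higher in sires, the lowest without dam replicate 4, and 135 to 221 higher in dams, the lowest without sire replicate 3. The share of calls higher in sires was 46.2% with TMM, 22.1% with total counts alone and 56.8% with the upper quartile. Genes called in the vehicle mice alone and the same way at 0.1 mg/kg numbered 265, against 453 with total counts alone and 459 with DESeq2, and 188 to 291 without 1 mouse. Thinning each library above 6947711 counts to about that total, with shallower libraries of treated mice left as they were, gave 175 and 196 genes. The difference in MUP share was 7.62 points and 7.21 to 8.63 points with the other denominators or probes (6.83 to 8.86 points without 1 mouse). No paired analysis was possible because the labels give animal numbers that no sire shares with a dam.

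Of 90 named genes called on the probe with the most counts, 66 kept their call in all 20 alternatives, 6 kept it wherever they could be tested but had no adjusted p in at least 1, and 18 lost it or changed direction in at least 1. Leaving out sire replicate 2 turned Saa1, Saa2 and Orm2, whose log2 differences without 1 mouse ran from -0.44 to 5.90, -1.37 to 6.28 and -2.55 to 3.94, and no other named gene changed direction while called. The depth of sires was below that of every dam, which limits what can be said of genes near 0 in sires.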
